A study of Mus musculus with 3 samples.

Results

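The Notch pathway was followed through 10 of its genes in RNA bound to chromatin of mouse macrophages: the receptors Notch1, Notch2 and Notch4, the ligands Jag1, Dll1 and Dll4, the DNA-binding factor Rbpj, its co-activator Maml1, and the target genes Hes1 and Hey1. They were chosen by symbol, and all 10 were found among 55450 annotated genes, of which 21951 are protein-coding. The cells were bone marrow-derived macrophages of the strain C57BL/6J, primary cells grown from marrow, with no allele or age given in the labels. All had received Lipid A, the part of bacterial lipopolysaccharide that TLR4 binds, at 100 ng/ml for 120 min, and ribosomal RNA was depleted before the chromatin fraction was sequenced. They form 1 group of 3 libraries (replicates 1, 2 and 3), so no contrast with untreated cells was made. The labels give 1 donor for the libraries and do not mention separate cultures, so the SDs and p-values below measure how these libraries differ, which may be technical.

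Notch receptors are single-pass membrane proteins that are cut in the Golgi, and ligand on a neighbouring cell pulls on them. ADAM proteases and then gamma-secretase release the intracellular domain, which enters the nucleus, binds RBPJ and recruits a Mastermind protein such as MAML1 to switch on genes of the Hes and Hey families. Without that domain RBPJ sits with co-repressors on the same sites. In macrophages, RBPJ and Notch are known to take part in the response to Toll-like receptor ligands.

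Annotated genes received 19745213, 20367101 and 21976578 expected counts in replicates 1, 2 and 3, and protein-coding genes held 17.9% to 24.3% of TPM (a level per transcript length, scaled to a fixed total in each library). Starting RNA was 1 µg, 250 ng and 500 ng, so it cannot be told apart from replicate. All 10 macrophage markers on a list had a mean of at least 1 TPM, with a summed level of 592, 1659 and 491 TPM. Replicate 2 stood apart most in Lyz2, at 88.88, 873.19 and 39.01 TPM. Cd14 was at 32.20, 142.59 and 17.47, and Cd68 at 16.40, 126.69 and 16.75. Csf1r, Spi1, Itgam, Adgre1 and Fcgr1 were also highest in replicate 2, by a smaller fold. Mrc1, at 117.57, 106.54 and 127.48 TPM, and Mertk, at 66.57, 59.89 and 88.01, were lowest there. Of 12 endothelial markers, 3 had a mean of at least 1 TPM (Vwf, Eng and Kdr), Tek, Emcn, Erg and Cldn5 had 0 counts in every library, and the sum was 35.8 to 40.9 TPM. The T cell list reached 12.7 to 27.8 TPM in sum, with Cd3e, Cd3g, Cd2 and Trbc2 at 0 counts in every library and 4 of 10 genes at a mean of 1 TPM or more: Cd28 at 3.69, 13.66 and 2.66 TPM and Il7r at 4.51, 9.43 and 3.19, both highest in replicate 2, Lck at 2.45, 3.25 and 5.28, and Cd5 at 1.95, 1.23 and 1.55. Summed levels were 5.55 to 6.89 TPM for dendritic cell markers, most of it from Batf3 at 4.75, 5.34 and 4.48 TPM, the only 1 of 7 with a mean of at least 1 TPM, with Cd209a at 0 counts, and 0.180 to 2.67 TPM for neutrophil markers, with Elane, Cxcr2 and Ly6g at 0 counts. The B cell, stromal, and mast cell and basophil lists each summed to at most 1.53 TPM in any library. These values are from the expected-count tables; in the other quantifier, a second set of tables described below, Cxcr2 was at 3.91, Mpo at 1.05, Pecam1 at 6.75 and Cd3d at 7.68 TPM, and 5 of 12 endothelial, 5 of 10 T cell, 2 of 7 dendritic cell and 2 of 7 neutrophil markers had a mean of at least 1 TPM. There 1 of 8 B cell markers (Ebf1, 2.14 TPM), 1 of 8 stromal markers (Pdgfra, 1.06 TPM) and 0 of 6 mast cell and basophil markers reached that mean. In bulk RNA, fewer cells of a type and less RNA per cell cannot be told apart.

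The 10 genes ranged from a mean of 0.01 TPM to 158 TPM. Of the 10, 6 had a mean of at least 1 TPM, against 41.6% of all protein-coding genes. The median of the 10 was 3.27 TPM against 0.287 TPM for protein-coding genes. The gap was smaller in the other quantifier, with a median of 2.95 TPM against 1.10 TPM. There 7 of the 10 genes and 11205 of the 21951 protein-coding genes had a mean of at least 1 TPM. Notch2, Notch1 and Rbpj lay above 50 TPM, and together they held 98.04%, 97.51% and 97.96% of the expected counts of the 10 genes. Dll4, Hey1 and Hes1 lay at the other end, with 7 counts or fewer in any library.

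**Figure D1:**
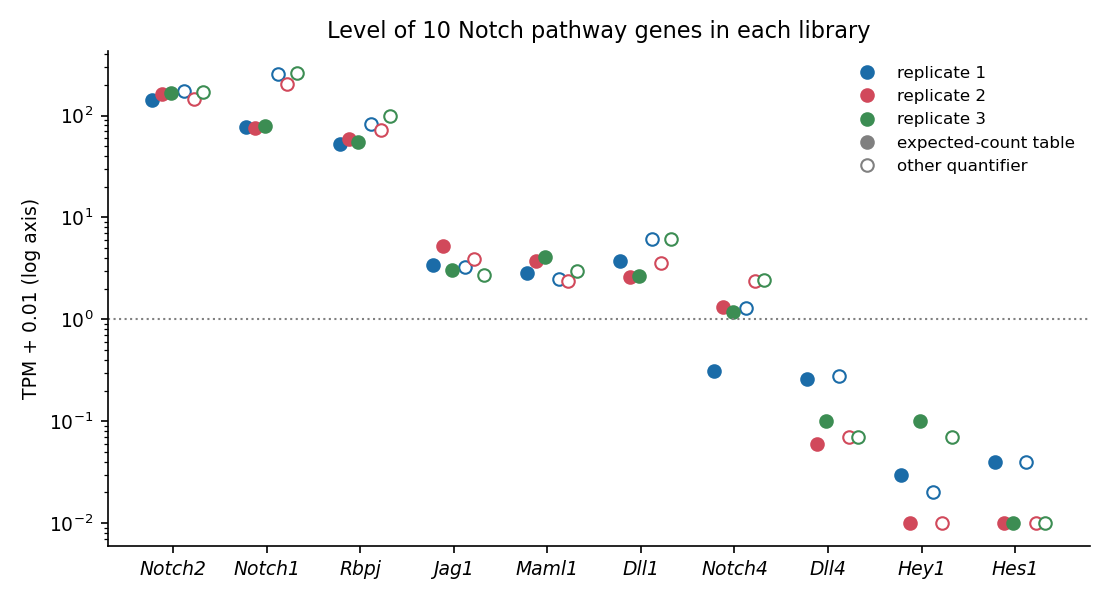
TPM + 0.01 on a log axis for the 10 genes in each library, with filled points for the expected-count tables, open points for the other quantifier and a dotted line at 1 TPM. Notch2, Notch1 and Rbpj sit above 50 TPM in every library and in both sets of tables, and Dll4, Hey1 and Hes1 sit below 1 TPM.

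Notch2, a receptor that also directs marginal zone B cell fate, had the highest level of the 10 genes in the expected-count tables. It lies on chromosome 3 (mm10, chr3:98013527-98150361, plus strand) and measured 143.62, 164.20 and 165.47 TPM in replicates 1, 2 and 3 (158 ± 12.3, SD, n = 3). That level exceeded 99.0% of protein-coding genes. The expected counts behind it were 29710.93, 27593.75 and 27693.11. Notch1, the receptor needed for T cell commitment, lies on chromosome 2 (chr2:26457903-26516663, minus strand). It measured 76.58, 75.26 and 79.83 TPM (77.2 ± 2.35), with all 3 libraries close together and below every Notch2 value. Notch4, a receptor best known from endothelium (chr17:34564268-34588503, plus strand), had 12, 23 and 26 expected counts, or 0.30, 1.31 and 1.16 TPM. Replicate 1 was the low library. As CPM, counts scaled to the library's total, these are 0.608, 1.13 and 1.18, and the exact (Clopper-Pearson) 95% intervals, 0.314 to 1.06, 0.716 to 1.69 and 0.773 to 1.73, overlapped. Such intervals, and the floors given below, hold counting error alone, because several reads can stem from 1 molecule. Its only protein-coding isoform, Notch4-201, was at 0.06, 0.10 and 0.12 TPM. In the expected-count tables most of the gene's TPM in replicates 2 and 3 lay in short isoforms with a retained intron. Examples are Notch4-205 at 0.00, 0.42 and 0.65 TPM and Notch4-206 at 0.00, 0.47 and 0.31 TPM, on at most 5 expected counts each. Of the gene's expected counts, Notch4-201 held 80.9%, 56.8% and 66.6%. In the other quantifier such retained-intron isoforms held 11.7%, 44.1% and 50.4% of its TPM.

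The ligands were far lower than both leading receptors. Jag1, a Serrate-type ligand and a reported target of NF-kB (chr2:137081456-137116644, minus strand), measured 3.42, 5.24 and 3.02 TPM on 389, 529 and 262 expected counts, with replicate 2 the highest. Dll1, a Delta-type ligand (chr17:15367354-15376872, minus strand), measured 3.73, 2.57 and 2.67 TPM on 159.32, 102.12 and 134.42 counts, with replicate 1 the highest. Dll4, the Delta-type ligand of endothelial tip cells (chr2:119325784-119335962, plus strand), had 7, 4 and 4 counts, or 0.25, 0.05 and 0.09 TPM. Its exact 95% intervals, 0.143 to 0.730, 0.0535 to 0.503 and 0.0496 to 0.466 CPM, overlapped. Among endothelial markers, Vwf was at a mean of 20.3 TPM, Eng at 13.4 and Kdr at 4.54. Several others were at 0 counts, as given above. The part of endothelial RNA in the values of Notch4 and Dll4 was not tested.

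Rbpj, the DNA-binding factor through which all Notch receptors signal (chr5:53466152-53657362, plus strand), measured 52.35, 58.39 and 55.03 TPM (55.3 ± 3.03) on 4036.14, 4166.53 and 3743.65 expected counts. The libraries differed by little on this scale. The processed pseudogene Rbpj-ps3 on chromosome 6 was listed at 1.10, 2.71 and 2.98 TPM (31.86, 67.47 and 78.35 expected counts) in the expected-count tables and at a mean of 0 in the other quantifier, while Rbpj-ps1 had 0 counts. Reads shared between Rbpj and such a copy make the pseudogene's value uncertain. Maml1, the co-activator that joins the RBPJ complex (chr11:50255634-50292311, minus strand), measured 2.86, 3.72 and 4.05 TPM on 336, 395 and 442 counts. Its level was thus close to Jag1 and Dll1 and far below Rbpj.

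The classical targets were nearly without reads. Hes1, a repressor that is among the best known Notch targets (chr16:30064384-30067796, plus strand), had 1, 0 and 0 counts. A count of 0 allows up to 3 counts, or 0.147 and 0.137 CPM in replicates 2 and 3, which on the transcript Hes1-201 equals 0.118 and 0.112 TPM. Hey1, a related repressor (chr3:8663359-8667256, minus strand), had 1, 0 and 2 counts, and the floor for replicate 2 was 0.0658 TPM on Hey1-201. No library held more than 2 counts of either gene, which is under the floor of 3, so no fold is given between them.

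Neighbours in the order of mean TPM (Notch2, Notch1, Rbpj, Jag1, Maml1, Dll1, Notch4, Dll4, Hey1, Hes1) were compared as log2(TPM + 0.1) with a two-sided sign-flip test, exact over the 3 libraries. The smallest p that this test allows is 0.25, so none of the 9 pairs could pass. In 5 pairs the higher gene was above in every library: Notch2 over Notch1 by 1.03 ± 0.11 (SD, n = 3), Notch1 over Rbpj by 0.48 ± 0.10, Rbpj over Jag1 by 3.83 ± 0.35, Dll1 over Notch4 by 1.77 ± 1.29 and Notch4 over Dll4 by 2.05 ± 1.63, each with an exact permutation p of 0.25 (0.450 after adjustment over 9 pairs). The other 4 pairs did not keep their order in every library. Jag1 and Maml1 differed by 0.11 ± 0.46, Maml1 and Dll1 by 0.24 ± 0.53 and Dll4 and Hey1 by 0.71 ± 0.78, while Hey1 and Hes1 were both under the floor. The differences between Jag1, Maml1 and Dll1 were within their spread. With protein-coding isoforms alone, an alternative added after the data were seen, Maml1 was above Dll1 in every library, by 1.08 in the expected-count tables and 0.91 in the other quantifier, whereas over all isoforms the other quantifier gave -0.95 (exact permutation p = 0.25 for each). On the same coding isoforms Notch4 minus Dll4 fell to 0.32 and 0.22 (exact permutation p = 0.500 for each), and the order was not kept in every library.

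The order of the 2 leading receptors depended on the table. The other quantifier, a second set of transcript tables that the deposited notes list as derived from the read files and not from an alignment, gave Notch1 254.30, 203.00 and 260.15 TPM (239 ± 31.4) and Notch2 175.59, 145.43 and 168.38 TPM (163 ± 15.7). Notch2 minus Notch1 was then -0.55 on the log2 scale, with Notch1 above in every library (exact permutation p = 0.25). With protein-coding isoforms alone, Notch2 was above Notch1 in both sets of tables: 118 ± 3.17 against 41.1 ± 2.29 TPM in the expected-count tables and 85.6 ± 7.43 against 35.5 ± 5.26 TPM in the other quantifier. Of the 6 genes with a mean of at least 1 TPM, Notch1, Rbpj and Dll1 were higher in the other quantifier in every library, and 49.5% of protein-coding genes at that level were. Rbpj stood at 84.7 ± 13.8 and Dll1 at 5.29 ± 1.47 TPM there.

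Most of the excess of Notch1 in the other quantifier lay in its short processed transcripts, which were chosen for mention after their values were seen. Notch1-211, of 184 nt, was at 80.81, 60.67 and 69.95 TPM in the other quantifier and 0 in the expected-count tables, and Notch1-208, of 157 nt, was at 55.42, 57.93 and 63.31 TPM against 0. Both begin inside intron 27 of Notch1-201 and splice into exon 28. The labels give a fragment size of 250 to 400 nt, longer than either transcript. In the other quantifier Notch1-211 had 111, 108 and 115 estimated counts on an effective length of 43.4 to 44.6 nt, and Notch1-208 had 53, 72.3 and 76.6 on 30.2 to 32.5 nt. The expected-count tables list shorter effective lengths, 11.8 to 19.4 and 5.01 to 8.34 nt. Among all 7238 annotated transcripts under 200 nt, 95.4% had 0 counts in every library in the expected-count tables and 64.2% in the other quantifier. The junctions of both with exon 28 are shown beside that of the full-length transcript, since the final 25 bases are the same in all 3 and only the first 25 can tell them apart; capitals mark bases that are no exon of Notch1-201 (minus strand, exon 28 part chr2:26465542-26465566):
Notch1-201: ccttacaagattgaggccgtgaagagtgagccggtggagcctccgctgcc
Notch1-208: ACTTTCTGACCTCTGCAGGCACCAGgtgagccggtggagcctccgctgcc
Notch1-211: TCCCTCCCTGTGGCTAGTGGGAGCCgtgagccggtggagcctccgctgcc

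Chromatin-bound RNA includes transcripts that are still being made and spliced, and 5 of the 10 genes (Notch1, Notch2, Rbpj, Jag1 and Dll1) had isoforms of both classes and enough reads to compare annotated retained-intron with protein-coding isoforms. Retained-intron isoforms are annotated transcripts that keep all or part of an intron and are not given a protein. The first bases of the kept intron (or the last, for Rbpj-212) are shown against the spliced transcript, because at these boundaries each pair diverges. Capitals mark intron bases.
Notch1-201 (exon 2 to 3): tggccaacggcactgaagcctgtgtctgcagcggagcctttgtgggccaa
Notch1-205 (exon 2 to intron 2): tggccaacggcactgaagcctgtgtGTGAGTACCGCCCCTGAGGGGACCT
Notch2-201 (exon 8 to 9): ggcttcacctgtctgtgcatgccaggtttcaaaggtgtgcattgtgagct
Notch2-202 (exon 8 to intron 8): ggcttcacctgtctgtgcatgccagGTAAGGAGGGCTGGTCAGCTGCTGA
Rbpj-207 (exon 3 to 4): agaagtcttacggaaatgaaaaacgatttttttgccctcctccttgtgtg
Rbpj-212 (intron 3 to exon 4): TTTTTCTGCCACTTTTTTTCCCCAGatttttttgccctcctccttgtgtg
Jag1-201 (exon 23 to 24): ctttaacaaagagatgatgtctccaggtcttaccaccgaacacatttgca
Jag1-202 (exon 23 to intron 23): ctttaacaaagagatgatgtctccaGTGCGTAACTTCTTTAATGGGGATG

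Notch1-205 joins exons 1 and 2 to the first 3726 nt of the 16431-nt intron 2 (chr2:26498155-26501880), the intron part making up most of its 4132 nt. Notch2-202 runs through exons 1 to 8 into the first 271 nt of the 1132-nt intron 8 (chr3:98100389-98100659). Rbpj-212 is a single exon that holds the last 3392 nt of the 5966-nt intron 3 (chr5:53638632-53642023) and runs into exon 4. Jag1-202 keeps the whole of intron 23, 215 nt (chr2:137084707-137084921), and Dll1-204 the whole of intron 10, 98 nt (chr17:15368036-15368133). The isoforms thus sample different stretches, from a short complete intron to several kilobases of a long one. Intron bases made up 271 of the 1896 nt of Notch2-202, 215 of the 1463 nt of Jag1-202 and 98 of the 751 nt of Dll1-204. How well reads outside these bases separate the isoforms was not tested. Within intron parts, reads of transcripts not yet spliced were not told apart from those of retained-intron isoforms.

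Protein-coding isoforms exceeded retained-intron isoforms in 4 of the 5 genes, Notch1, Notch2, Rbpj and Jag1 (limma's moderated test on log2(TPM + 0.1), Benjamini-Hochberg adjusted over 5603 genes, threshold 0.05). Over all genes tested, 29.7% were called in that direction and 19.3% in the other, which 0 of the 5 genes were by limma, also at an unadjusted p under 0.05. The median log2 ratio was -1.63 over the 5 genes and -0.23 over all 5603. Notch2-201 was at 118.32, 120.99 and 114.68 TPM and Notch2-202 at 25.30, 43.21 and 50.79 TPM. The retained-intron isoform was thus low in replicate 1, though not in the other quantifier (82.36, 67.05 and 83.14 TPM). The coding isoform was flat (log2 ratio -1.63, SE 0.32, adjusted p = 0.00898 by limma). Rbpj's coding isoforms, led by Rbpj-207, summed to 31.1 ± 3.19 TPM, and its retained-intron isoforms to 9.87 ± 1.78 TPM (log2 ratio -1.66, SE 0.28, adjusted p = 0.00553 by limma). Of the latter, Rbpj-212 was at 4.50, 7.04 and 8.0 TPM, Rbpj-211 at 3.33, 4.01 and 2.65 and Rbpj-206 at 0.00, 0.04 and 0.04. Jag1-201 was at 2.94, 4.53 and 1.99 TPM and Jag1-202 at 0.48, 0.71 and 1.04, so replicate 3 had the lowest coding and the highest retained-intron value (log2 ratio -1.93, SE 0.40, adjusted p = 0.0113 by limma). Notch1-201 was at 43.71, 40.17 and 39.42 TPM and Notch1-205 at 21.61, 19.97 and 26.92, the smallest gap of the 4 (log2 ratio -0.86, SE 0.27, adjusted p = 0.0450 by limma).

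**Figure D2:**
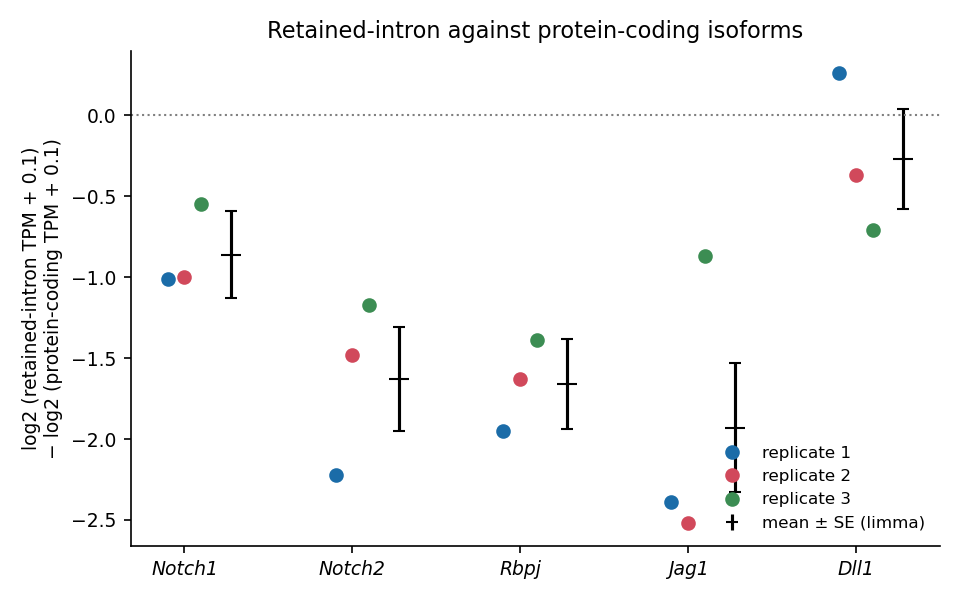
log2 of retained-intron over protein-coding TPM (each + 0.1) for the 5 genes, with 1 point a library and the mean ± SE from limma beside them. All 3 libraries lie below 0 for Notch1, Notch2, Rbpj and Jag1, and Dll1 lies on both sides.

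Dll1 was not called. Dll1-201 was at 1.69, 1.27 and 1.68 TPM, while Dll1-204 was at 0.82, 1.06 and 0.80, Dll1-203 at 1.22, 0.00 and 0.01 and Dll1-202 at 0.00, 0.05 and 0.18 TPM (log2 ratio -0.27, SE 0.31, adjusted p = 0.493 by limma). The call for Notch1 was marginal: it was lost with a pseudocount of 0.01 (adjusted p = 0.0563 by limma), with a mean count filter of 10 (0.0573) or none (0.0502), and without replicate 1 (0.183) or 2 (0.247). Without replicate 1 the calls for Notch2 (adjusted p = 0.0604 by limma) and Jag1 (0.0791) were lost too, and in the other quantifier those for Notch2 (log2 ratio -0.15) and Rbpj (-0.49) were lost and Dll1 turned to 1.03.

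The classes also took different shares of each gene's TPM in the 2 sets of tables. Protein-coding isoforms held 75.1 ± 6.66% of Notch2 TPM in the expected-count tables and 52.5 ± 1.71% in the other quantifier, where Notch2-202 alone stood at 77.5 ± 9.08 TPM. For Notch1 the shares were 53.3 ± 3.85% and 14.8 ± 1.29%, for Rbpj 56.2 ± 4.31% and 32.0 ± 5.84%, and for Dll1 55.0 ± 8.94% and 26.8 ± 7.68%. Jag1 differed least, with 79.4 ± 11.9% and 83.0 ± 9.11%. As shares of expected counts, with no correction for length, coding isoforms held more: 94.9 ± 1.65% for Notch2, 80.6 ± 2.89% for Notch1, 85.3 ± 3.26% for Rbpj, 94.1 ± 4.08% for Jag1 and 88.2 ± 3.80% for Dll1. Maml1 has 2 isoforms, both coding, of which Maml1-201 was at 1.28, 2.32 and 1.92 TPM.

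**Figure D3:**
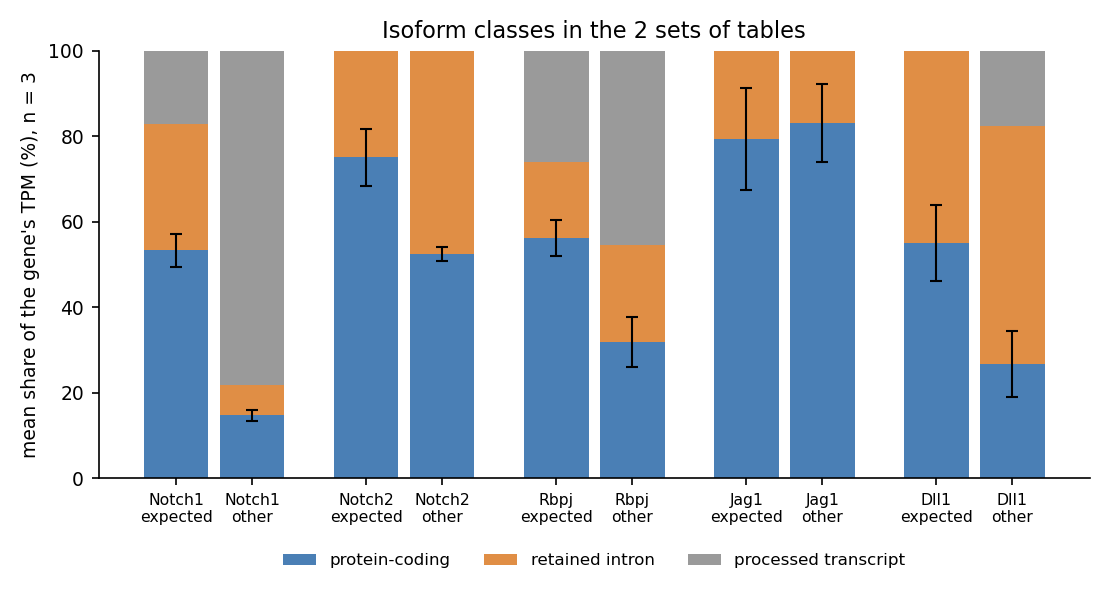
Mean share of each gene's TPM held by protein-coding, retained-intron and processed-transcript isoforms over 3 libraries, for the expected-count tables (left bar of each pair) and the other quantifier (right bar), with the SD of the coding share as an error bar. The coding share of Notch1 is 53.3% in one and 14.8% in the other, and that of Jag1 is 79.4% and 83.0%.

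Other annotated models lie within or across the 10 genes, and no strand setting was given in the sources used here, so reads from opposite strands of an overlap cannot be told apart. Inside Notch2 and on its strand are 2 models awaiting experimental support. Gm42819, of 5121 nt, lies wholly in intron 1 (chr3:98030687-98035807) and measured 21.74, 31.85 and 37.35 TPM on 2516, 3262 and 4002 expected counts. Gm42820, of 3063 nt (chr3:98121588-98124650), spans exons 19 to 21 of Notch2-201, shares 541 nt with them and measured 20.43, 28.36 and 36.60 TPM. In the expected-count tables both models, like Notch2-202, were lowest in replicate 1 and highest in replicate 3, unlike the coding transcript Notch2-201. Replicate 3 was the highest on TPM in 59.5% of all genes tested. In the other quantifier Notch2-202 was lowest in replicate 2. At the 3′ end of Notch1, Gm13568 on the opposite strand was at 11.1 ± 0.772 TPM and 0610009E02Rik at 1.36 ± 0.844 TPM, and the microRNA gene Mir6996 had 0 counts in the expected-count tables. Gm26542, antisense to Maml1, was at 2.33 ± 0.541 TPM on 39.87 to 59.77 counts, compared with 3.54 ± 0.614 TPM on 336 to 442 counts for Maml1. In the other quantifier the order reversed, with Gm26542 at a mean of 7.61 TPM and Maml1 at 2.62 TPM. A930024N18Rik, opposite Dll1, was at 0.393 ± 0.181 TPM. Gm20462 (in Notch4), Gm10441 and Gm40304 (opposite Rbpj) and Gm14207 (opposite Dll4) had at most 3 counts in any library.

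A mean count of 10 or more was reached by 7 of the 10 genes, and 5 of these 7 varied between libraries beyond counting error (chi-square test of rounded expected counts against Poisson with TMM library sizes, Benjamini-Hochberg adjusted over 14189 genes). Of all genes tested, 68.7% did, so the share among the 7 is near the background. Jag1 had the largest coefficient of variation beyond Poisson, 42.3%, higher than in 83.8% of tested genes, on TMM-scaled CPM of 21.7, 25.9 and 10.9. Dll1 had 30.3%, on 8.88, 5.0 and 5.58, with replicate 1 high. Notch1 had 22.4%, on 648, 465 and 429.9, and 5.43% without replicate 1. Rbpj with 18.9% and Notch2 with 18.5% lay near the median of 19.9%, both with replicate 1 highest and replicate 3 lowest; Notch2 fell to 11.5% without replicate 1 and Rbpj to 11.4% without replicate 3. Scaled by total counts, Notch1, Notch2 and Rbpj had 13.4%, 8.98% and 10.3%, and each was still called. Maml1 did not exceed counting error, on 18.7, 19.3 and 18.3 (adjusted p = 0.771 over all genes by the chi-square test), nor did Notch4 (0.339), but in the other quantifier Maml1 was called, with 16.4% (adjusted p = 2.15e-06). With counting error left in, the coefficients of Notch1, Notch2, Rbpj and Maml1 were 22.7%, 18.4%, 18.4% and 2.69% on TMM-scaled CPM. On TPM they were 3.05%, 7.77%, 5.48% and 17.3%, so Maml1 went from the lowest of these genes to the highest. The call for Jag1 was lost without replicate 3 (adjusted p = 0.154) and that for Dll1 without replicate 1 (0.525).

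Which library was highest depended on the scale. On TMM-scaled CPM, 4 of the 7 genes (Notch1, Notch2, Rbpj and Dll1) were highest in replicate 1, where 27.7% of all 14189 genes were. On TPM only Dll1 of the 7 was highest in replicate 1, against 8.29% of all genes, and Notch1 and Notch2 were highest in replicate 3, where 59.5% of genes were. Expressed as log2 of one library minus the mean of the others, the median of all genes for replicate 1 was -0.11 with TMM, -0.31 with total counts and -0.54 on TPM. Against those medians, replicate 1 was at 0.53, 0.33 and -0.02 for Notch1 and at 0.41, 0.20 and -0.20 for Notch2, so both lay above the median gene on each scale although the sign turned. Jag1 in replicate 2 was at 0.75, 0.76 and 0.69 on the same 3 scales, where the median gene was at 0.07, 0.08 and 0.13, and in replicate 3 at -1.12, -0.92 and -0.47. On TMM-scaled CPM, Jag1 was at 25.9 in replicate 2 and 21.7 in replicate 1, against 10.9 in replicate 3. Replicate 2 was also the library with the highest summed macrophage markers, although Mrc1 and Mertk were lowest there. The part of these markers in the value of Jag1 was not tested.

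**Figure D4:**
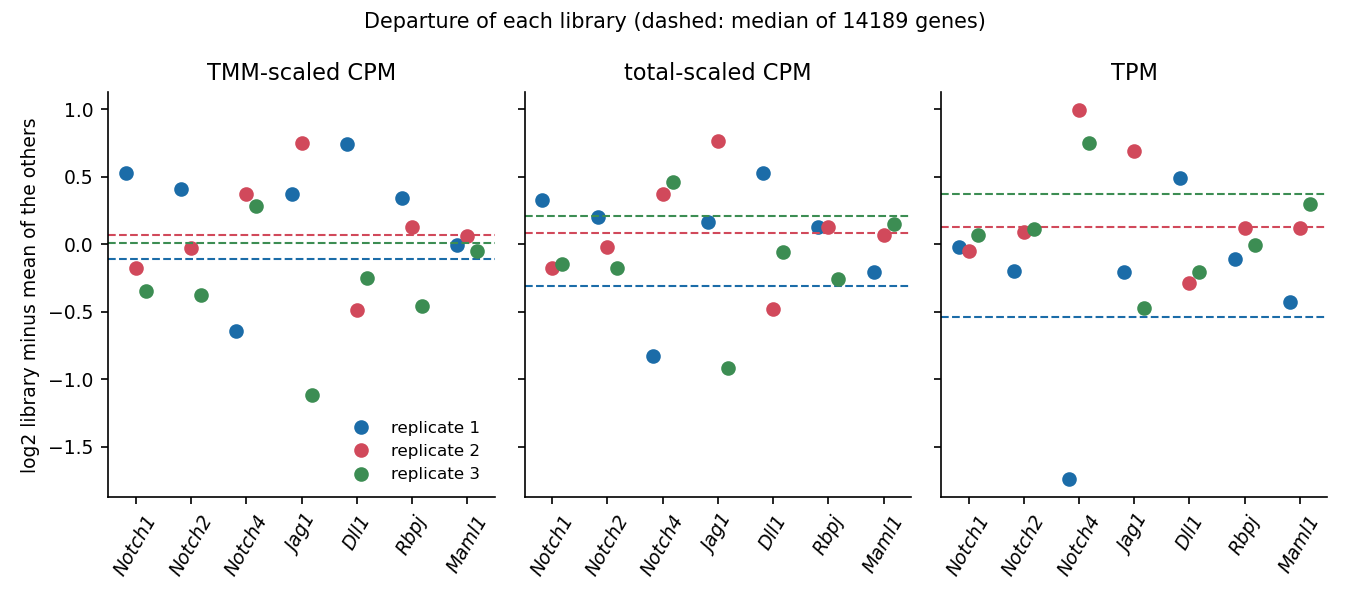
log2 of each library minus the mean of the other libraries for the 7 genes whose mean count reached 10, on 3 scales, with dashed lines at the median of 14189 genes for each library. Jag1 is high in replicate 2 and low in replicate 3 on every scale, while Notch1 and Notch2 in replicate 1 are above 0 on both count scales and at or below 0 on TPM.

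The rest of the pathway was taken from 7 lists that hold 71 genes beside the 10, each counted once. Of these 71, 47 had a mean of at least 1 TPM and the median was 6.69 TPM, against the 41.6% and 0.287 TPM of all protein-coding genes. In the other quantifier 55 of the 71 did, with a median of 8.13 TPM against 1.10 TPM for protein-coding genes. Of 39 with both isoform classes, 16 were called with coding and 7 with retained-intron isoforms higher (limma), against 29.7% and 19.3% of all genes tested, with a median log2 ratio of -0.61 against -0.23. Of 50 tested for variation, 41 were called, against 68.7% of all genes, with a median coefficient of variation of 16.1% against 19.9%.

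No other receptor or ligand reached 1 TPM: 0 of 6 did, led by Dner at 0.190 ± 0.171, Jag2 at 0.123 ± 0.147 and Notch3 at 0.0200 ± 0.0173 TPM, while Dll3 and Dlk1 had 0 counts in every library. Notch1 and Notch2 were thus the receptors with most of the reads, and Jag1 and Dll1 the ligands with over 100 counts in every library. The machinery that makes ligand and receptor competent was measured more widely. Of 13 genes of endocytosis and ubiquitination 9 had at least 1 TPM, led by Mib1, the ligase that sends ligands into endocytosis, at 31.74, 32.00 and 35.45 TPM, then Neurl3 at 30.5 ± 1.92 and Numb, an inhibitor of Notch, at 24.5 ± 5.66 TPM. Dtx1 and Neurl1b were lowest, at 0.0133 ± 0.0153 and 0.0433 ± 0.0153 TPM, but stood at 1.86 and 1.33 TPM in the other quantifier.

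Of 8 genes that glycosylate or cleave the receptor, 6 had at least 1 TPM. Furin, the convertase of the Golgi cut, was at 67.4 ± 6.50 TPM, close to the level of Notch1, and Adam17, a sheddase, at 38.2 ± 2.09 TPM. Pofut1, which adds the O-fucose that ligand binding needs, was at 21.8 ± 6.93 TPM. The fringe glycosyltransferases Rfng and Mfng were lowest, at 0.987 ± 0.342 and 0.0267 ± 0.0252 TPM, but Mfng stood at 6.76 TPM in the other quantifier. Of 7 gamma-secretase genes, 6 had at least 1 TPM. The subunits nicastrin (Ncstn) and Psenen were at 32.6 ± 6.70 and 10.1 ± 4.53 TPM. Aph1c and Aph1b are near-identical copies, so their 2.77 ± 2.12 and 0.573 ± 0.864 TPM are uncertain.

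On the nuclear side, all 9 co-activator and turnover genes had at least 1 TPM, from the acetyltransferase Ep300 at 36.96, 40.57 and 66.22 TPM, with Snw1 at 14.7 ± 5.06 and Cdk8 at 12.1 ± 2.62 TPM, down to Fbxw7, the ligase for the intracellular domain, at 6.93 ± 2.23 and Maml3 at 1.35 ± 0.206 TPM. Of 15 co-repressors 13 did. Spen, the RBPJ partner SHARP, was at 115.88, 127.13 and 167.97 TPM, against 143.62, 164.20 and 165.47 TPM for Notch2. Spen was thus below Notch2 in replicates 1 and 2 and slightly above it in replicate 3. Ncor1 followed at 75.4 ± 13.5 and Tle3 at 71.0 ± 11.3 TPM. Rita1 and Fhl1 were at 0.260 ± 0.114 and 0.0200 TPM, the latter on 1 count in each library, but Fhl1 stood at 3.66 TPM in the other quantifier.

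Target genes were low as a list, like Hes1 and Hey1. Of 14, 4 had a mean of at least 1 TPM and 2 had it in every library, with a median of 0.0367 TPM, below the 0.287 TPM of protein-coding genes. Il2ra was at 1.16, 3.09 and 2.59 TPM, Hes6 at 0.85, 2.19 and 3.17, and Myc at 2.60, 1.41 and 1.14. Heyl and Hey2 had 0 counts in every library. In the other quantifier 8 of the 14 reached 1 TPM, with a median of 1.20 TPM against 1.10 TPM for protein-coding genes, while Hes1 stayed at 0.03, 0.00 and 0.00 TPM and Hey1 at 0.01, 0.00 and 0.06.

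**Figure D5:**
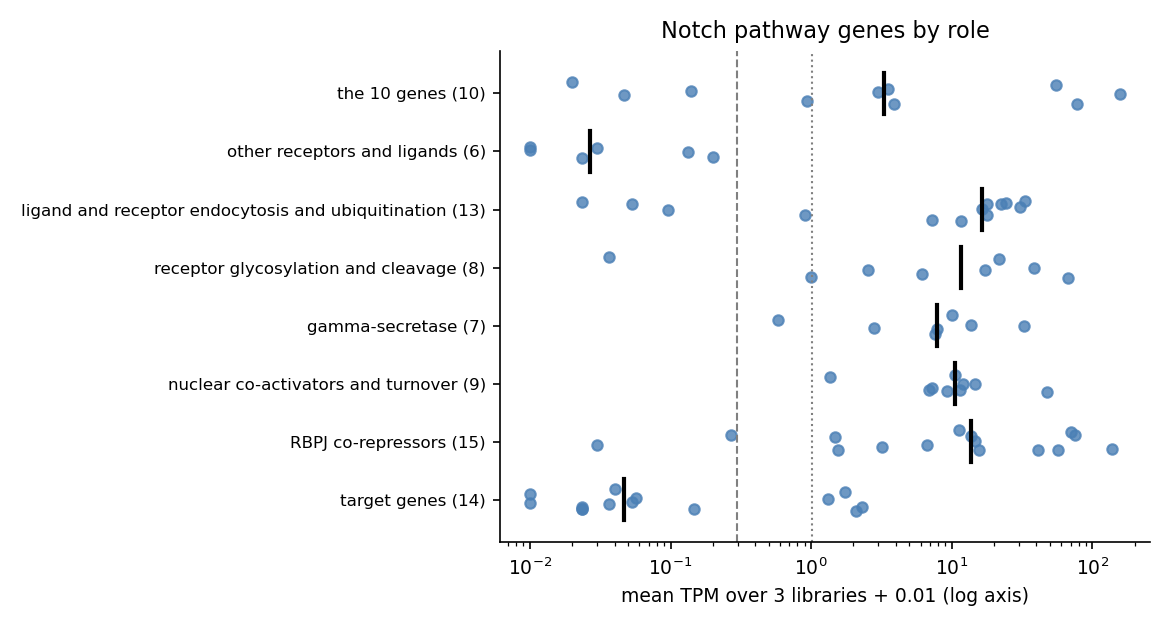
Mean TPM over 3 libraries + 0.01 on a log axis for the 10 genes and 7 lists of other pathway genes (1 point a gene, list size in parentheses), with a bar at each list's median, a dashed line at the median of all protein-coding genes and a dotted line at 1 TPM. Medians of the machinery and co-factor lists lie between 7.90 and 16.4 TPM, and those of other receptors and ligands and of target genes below 0.04 TPM.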

How the data were processed

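Total RNA of the chromatin fraction was measured in 3 libraries. Per the deposited notes, tables were made on mm10 with GENCODE M21. The authors deposited expected counts (reads shared out among features, not whole), the posterior SD of those counts, and TPM per gene and transcript, in RSEM's layout. The authors also deposited a second set of transcript tables with estimated counts and TPM, in kallisto's layout (the other quantifier), summed here per gene. Which aligner and quantifiers were run, and with which strand setting, is not given in the sources used here. Of 81881 gene entries 55450 matched the annotation; the rest (0.215% to 0.874% of counts) were left out.

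The members, lists and tests were chosen with earlier results of these data known. All 149 list symbols matched. Besides the 10 members, the text names the 3 highest and 2 lowest genes of each pathway list, overlapping genes, pseudogenes by symbol, each member's leading isoform and tested retained-intron isoforms. Isoform ratios were tested with limma 3.58.1 in genes of mean count 50 or more, and variation between libraries by a chi-square test on rounded expected counts with TMM factors (edgeR 4.0.16); DESeq2 1.42.0 gave alternative size factors. Both tests were tested on simulated data. With Poisson error alone, the variation test recovered 52% of 100 genes changed 1.5-fold in 1 library and 98% of 100 changed 3-fold. It made 12 false calls over 14189 genes. The real libraries had a median coefficient of variation beyond Poisson of 19.9%, so these rates do not describe recovery at that spread. The isoform test recovered 50% of 100 genes shifted by 2 on the log2 scale and 87% of 100 shifted by 4. It made 4 false calls over 5603 genes. A gene that was not called, such as Dll1, may thus still differ. Intervals are exact (Clopper-Pearson, 95%), and a count of 0 was given a floor of 3 counts per library. Sequences were read from GENCODE M21 transcripts.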

Additional observations from a re-analysis of the deposited data

How the results depend on the processing

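With 1 group, no result compares conditions. Of the 10 genes, 3 had a mean of at least 5 TPM and 8 a mean of at least 0.1 TPM, against 6 at 1 TPM. Coding isoforms were called higher in 2 of the members in the other quantifier, in 2 with retained-intron, processed and nonsense-mediated-decay transcripts pooled (Notch1 -0.19 and Rbpj -0.36 were lost), and in 1 to 4 when each library was left out; in the other quantifier 1 member (Dll1, 1.03) was called with retained-intron isoforms higher, and 2501 of all genes were, against 1084. Leaving out a library gave 925 to 1793 genes with coding and 607 to 961 with retained-intron isoforms higher, against 1666 and 1084, the lowest of both without replicate 1. Differences that reversed were Notch2 minus Notch1 (-0.55) and Maml1 minus Dll1 (-0.95) in the other quantifier, Jag1 minus Maml1 with coding isoforms alone (-0.22) and without replicate 2, and Hey1 minus Hes1 without replicate 3; leaving out each library gave -0.08 to 0.37 and -0.06 to 0.46 for the last 2 pairs. The departure of Maml1 in replicate 2 reversed to -0.01 with DESeq2 size factors and in the other quantifier. The cause was not tested. No paired analysis was possible because there is 1 group. Leaving out a library leaves 2, and the spread is then pooled over genes. Counts under 10 (Dll4, Hes1, Hey1) limit any statement on those genes.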
